A study of Mus musculus with 16 samples.

Results

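The proteasome genes described here are the 47 genes whose complete symbol was Psm, a letter from a to g and a number. They were chosen by symbol alone among 22180 genes that had a probe set with a single symbol, and a gene with several such probe sets was read by the one with the highest mean. Gene expression had been measured in dendritic cells that GM-CSF (20 ng/ml, 10 days) had raised from the marrow of male mice (C57/B6), after 24 h of treatment. The 4 groups held 4 arrays each. In the order used here they were cells given IMQ with PA (IMQ+PA), cells given IMQ alone, cells given PA alone, and mock-treated cells (mock). All 4 shared strain, sex and culture, and the labels name no transgene or deletion. From knowledge of the study, PA is taken to be the saturated fatty acid palmitic acid and IMQ to be imiquimod, which activates TLR7, a sensor of RNA. PA was used at 0.5 mM on albumin, with 6 molecules of PA per albumin. Of the labels, one puts IMQ at 3 uM and another at 3 ug/ml. Whether mock cells were given albumin, and how many mice the cultures came from, is not stated. The series crossed the fatty acid with the agonist, so the comparisons ask what each did to the proteasome genes and what the fatty acid did in the presence of the agonist.

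The proteasome is the protease that breaks down proteins tagged with ubiquitin. Its core particle is a barrel of alpha rings, which gate the entrance, and beta rings, which hold the cutting sites; a regulatory particle, made of a base with ATPases and a lid, binds, unfolds and feeds in the substrate. In dendritic cells and in cells exposed to interferon, the cutting subunits Psmb5, Psmb6 and Psmb7 can be replaced by the inducible subunits Psmb8, Psmb9 and Psmb10, which form the immunoproteasome and yield peptides suited to MHC class I. Transcription factors of the NRF1 and NRF2 family act on many constitutive subunit genes through the antioxidant response element, while interferon regulatory factors and NLRC5 act on the inducible ones.

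By role the 47 genes fell into 6 alpha subunits, 7 constitutive beta subunits, 3 inducible beta subunits and 2 core subunits restricted to other tissues. They also held 6 base ATPases, 3 base subunits without ATPase activity, 8 lid subunits, 3 assembly factors of the regulatory particle, 4 assembly factors of the core and, in a group of 5, the activators and an inhibitor. Another alpha subunit, Psma4, was carried only by probe sets with several symbols and was not analysed here. Psmd1 and Psme2 each also had a probe set with several symbols, which was left out. All values are on the log2 scale of the array, a change is a difference between group means with its standard error (SE) from the fit after ±, and n = 4 arrays per group. A gene was called at an adjusted p under 0.05, from limma with Benjamini-Hochberg adjustment over all 22180 genes. The replicates are labelled biological, with no animal or culture named, and each p-value rests on the variation among these arrays alone. Psmb11, the beta subunit of thymic epithelium, was the only member with all group means below 4.93, a background level set at the 95th percentile of 1447 sensory receptor genes. Members were measured tightly, with a median residual SD of 0.064 against 0.13 for all genes. Values and shares of all genes include 8622 genes below the 4.93 level in every group, and the part of this in the differences from members was not tested.

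Across all genes, arrays of the same group correlated at 0.994 to 0.996, and 0 pairs of arrays were identical. Inflammatory transcripts set some arrays without IMQ apart from others of the same group. Il6 read 4.12, 4.0, 7.43 and 8.22 in PA replicates 1 to 4 and 7.57, 7.90, 7.71 and 4.32 in mock replicates 1 to 4. On both sides of that split Psmb8 overlapped in both groups, at 10.06 in mock replicate 4, against 10.07, 10.10 and 10.01 in the other mock arrays. Psmb9 did not overlap in PA, where it read 8.09 and 8.12 in replicates 1 and 2 and 8.06 and 8.03 in replicates 3 and 4, and Psmb10 was highest in replicate 4 of the mock arrays, by less than the spread among the others. All 8 measured dendritic cell markers lay above the 4.93 level in every group. Their summed linear signal was 9307 to 9402 in IMQ+PA, 8752 to 9081 in IMQ, 12146 to 12535 in PA and 12465 to 12817 in mock arrays. Summed neutrophil markers, of which 1 to 3 of 6 lay above the level, were 372 to 401 in IMQ+PA, 349 to 372 in IMQ, 190 to 212 in PA and 211 to 221 in mock arrays. All 5 macrophage markers measured lay above the level in every group, and their summed signal was 8158 to 8549 in IMQ+PA, 9208 to 9810 in IMQ, 10077 to 10338 in PA and 9998 to 10318 in mock arrays. None of the 3 T cell, 2 B cell or 3 mast cell and basophil markers measured lay above that level in any group. These sums follow the brightest markers, and single markers moved both ways. With IMQ alone against mock, 3 dendritic cell markers were called higher and 5 lower, at changes from -1.71 to 1.41. Of the macrophage markers 2 were higher and 3 lower (-3.62 to 1.55), and of the neutrophil markers 2 higher and 1 lower. All genes were called at 17.0% higher and 17.9% lower. The part of these marker changes in the results was not tested, and in bulk samples fewer cells of a type and less RNA per cell cannot be told apart.

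**Figure D1:**
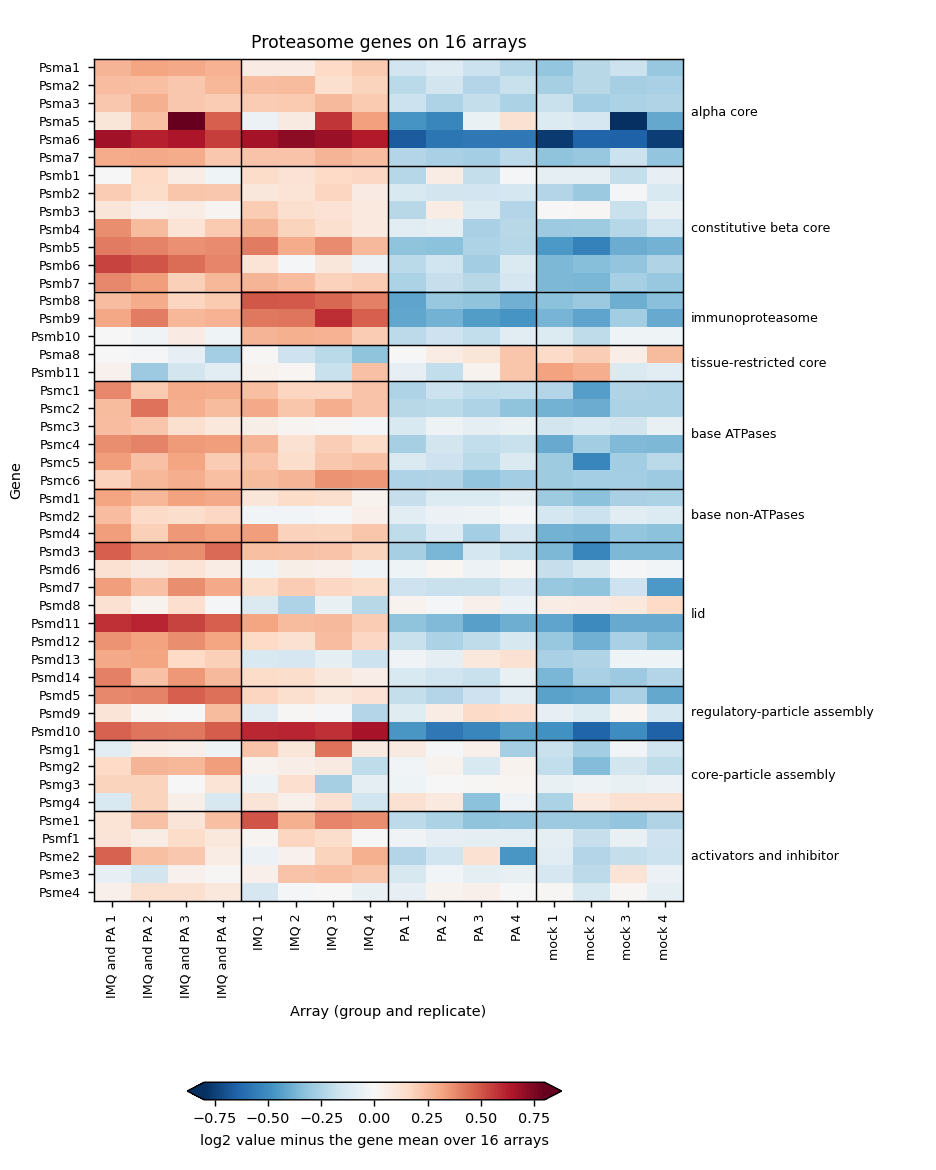
Heat map of the 47 proteasome genes (rows, grouped by role) on the 16 arrays (columns, in the order IMQ+PA, IMQ, PA, mock), coloured by each gene's log2 value minus its mean over the 16 arrays, with colours capped at both ends of the scale. Most rows are high on the 8 arrays with IMQ and low on the 8 without it, and Psma6 and Psmd10 show the strongest contrast, at changes of 1.38 and 1.18 with IMQ alone.

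IMQ alone raised proteasome genes in nearly every role. Against mock, 37 of the 47 members were called higher and 2 lower, where 17.0% of all genes were called higher and 17.9% lower. The median member changed by 0.39 on the log2 scale, against 0.01 for all genes. Arrays of both groups did not overlap for 36 members that were higher and 2 that were lower, against 16.7% and 17.5% of all genes. All 6 alpha subunits (median 0.49), all 7 constitutive beta subunits (0.35), all 3 inducible subunits (0.80), all 6 base ATPases (0.53) and all 3 other base subunits (0.38) were called higher. Of the 8 lid subunits 5 were called higher and 1 lower (0.43). Of the assembly factors 2 of 3 for the regulatory particle and 2 of 4 for the core were called higher, and of the activators and inhibitor 3 of 5.

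Psma6, an alpha ring subunit, changed most. It read 9.48, 9.43, 9.46 and 9.36 in IMQ+PA, 9.48, 9.53, 9.51 and 9.45 in IMQ, 8.15, 8.23, 8.24 and 8.24 in PA, and 8.04, 8.17, 8.17 and 8.06 in mock arrays. The arrays with IMQ lay far above those without it, and the arrays with and without PA overlapped on both sides. IMQ alone raised Psma6 2.60-fold (log2 change 1.38 ± 0.05, limma adjusted p = 1.32e-12), and its change in IMQ+PA was 1.32 ± 0.05 against mock and 1.22 ± 0.05 against PA. The other alpha subunits rose less with IMQ, by 0.38 for Psma1, 0.46 for Psma2, 0.46 for Psma3 and 0.52 for Psma7. Psma5 had a fitted change of 0.68 ± 0.24 (limma adjusted p = 0.0388), but its mock mean of 4.53 and PA mean of 4.75 lay below the 4.93 level, so the size was not measured. A dimmer probe set of Psma5 changed by 0.17 and was not called. Psma8, an alpha subunit of germ cells, fell by 0.34 on the log2 scale (SE 0.08, limma adjusted p = 0.00279). It read 5.30, 5.28, 5.23 and 5.02 in IMQ+PA, 5.30, 5.13, 5.08 and 4.97 in IMQ, 5.30, 5.35, 5.39 and 5.52 in PA, and 5.45, 5.49, 5.35 and 5.55 in mock arrays, all close to the 4.93 level.

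The catalytic beta subunits form 3 pairs, each of a constitutive subunit and the inducible one that takes its place. Psmb8 read 10.65, 10.69, 10.57 and 10.61 in IMQ+PA, 10.90, 10.89, 10.86 and 10.80 in IMQ, 9.97, 10.10, 10.07 and 10.01 in PA, and 10.07, 10.10, 10.01 and 10.06 in mock arrays. Its constitutive partner Psmb5, which cuts after hydrophobic residues, read 9.60, 9.59, 9.56 and 9.57 in IMQ+PA, 9.61, 9.49, 9.57 and 9.45 in IMQ, 8.87, 8.86, 8.94 and 8.96 in PA, and 8.73, 8.65, 8.79 and 8.81 in mock arrays. Both rose with IMQ alone by a like amount, 0.80 ± 0.05 for Psmb8 (limma adjusted p = 5.85e-10) and 0.78 ± 0.05 for Psmb5 (2.31e-09), and the Psmb8 arrays of IMQ+PA lay between those of IMQ and those without IMQ. Psmb9 read 8.82, 8.91, 8.77 and 8.78 in IMQ+PA, 8.93, 8.93, 9.09 and 8.98 in IMQ, 8.09, 8.12, 8.06 and 8.03 in PA, and 8.13, 8.09, 8.23 and 8.10 in mock arrays. Its partner Psmb6, which cuts after acidic residues, read 10.41, 10.37, 10.32 and 10.26 in IMQ+PA, 9.98, 9.86, 9.96 and 9.82 in IMQ, 9.65, 9.71, 9.59 and 9.75 in PA, and 9.51, 9.53, 9.55 and 9.63 in mock arrays. Here IMQ alone raised the inducible subunit more, Psmb9 by 0.85 ± 0.05 (limma adjusted p = 1.29e-09) and Psmb6 by 0.35 ± 0.05 (6.51e-05), and IMQ+PA stood highest for Psmb6 only. Psmb10 read 9.81, 9.77, 9.87 and 9.77 in IMQ+PA, 10.08, 10.09, 10.09 and 10.01 in IMQ, 9.60, 9.64, 9.61 and 9.72 in PA, and 9.69, 9.60, 9.77 and 9.77 in mock arrays. Its partner Psmb7, which cuts after basic residues, read 10.37, 10.32, 10.17 and 10.25 in IMQ+PA, 10.25, 10.23, 10.17 and 10.19 in IMQ, 9.73, 9.80, 9.76 and 9.84 in PA, and 9.62, 9.62, 9.72 and 9.68 in mock arrays. IMQ alone raised Psmb10 by 0.36 ± 0.05 (limma adjusted p = 2.15e-05) and Psmb7 by 0.55 ± 0.05 (1.58e-07), so the constitutive subunit changed more in this pair. The other constitutive beta subunits, which do not cut, rose with IMQ by 0.25 (Psmb1), 0.27 (Psmb2), 0.19 (Psmb3) and 0.40 (Psmb4).

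The promoters of Psmb6, Psmb5, Psmb9 and Psme1 are shown because these genes rose with IMQ and then differed with added PA, when Psmb6 rose further, Psmb5 was not called, and Psmb9 and Psme1 fell. Each window runs from 250 bases before to 50 after the annotated start (RefSeq, GRCm38.p6) on the gene's strand. Windows were found for 39 of the 47 members. Capitals mark a match on either strand to TGACNNNGC, the antioxidant response element core, in Psmb6 and Psmb5, and to GAAANNGAAA, a doubled interferon response core, in Psme1, where it reads on the opposite strand. None of the 4 windows held a match to another of the 3 motifs searched, the NF-kB consensus among them.
Psmb6, chr11:70525107-70525406, plus strand: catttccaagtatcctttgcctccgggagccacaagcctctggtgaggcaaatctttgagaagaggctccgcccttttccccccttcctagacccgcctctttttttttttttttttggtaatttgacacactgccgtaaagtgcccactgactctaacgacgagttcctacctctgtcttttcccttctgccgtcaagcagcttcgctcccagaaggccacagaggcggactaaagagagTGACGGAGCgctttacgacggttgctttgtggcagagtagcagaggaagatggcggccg
Psmb5, chr14:54617946-54618245, minus strand: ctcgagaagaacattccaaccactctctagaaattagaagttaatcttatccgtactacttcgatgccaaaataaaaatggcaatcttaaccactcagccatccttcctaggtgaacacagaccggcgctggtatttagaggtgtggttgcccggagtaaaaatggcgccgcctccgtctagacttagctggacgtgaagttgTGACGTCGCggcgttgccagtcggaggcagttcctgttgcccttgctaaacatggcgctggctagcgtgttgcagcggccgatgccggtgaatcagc
Psmb9, chr17:34187281-34187580, minus strand: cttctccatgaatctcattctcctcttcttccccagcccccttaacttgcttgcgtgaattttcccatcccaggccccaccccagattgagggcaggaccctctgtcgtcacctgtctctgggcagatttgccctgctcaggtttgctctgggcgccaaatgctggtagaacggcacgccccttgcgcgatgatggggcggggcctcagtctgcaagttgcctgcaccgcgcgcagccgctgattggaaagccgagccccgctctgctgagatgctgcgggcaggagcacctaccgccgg
Psme1, chr14:55578244-55578543, plus strand: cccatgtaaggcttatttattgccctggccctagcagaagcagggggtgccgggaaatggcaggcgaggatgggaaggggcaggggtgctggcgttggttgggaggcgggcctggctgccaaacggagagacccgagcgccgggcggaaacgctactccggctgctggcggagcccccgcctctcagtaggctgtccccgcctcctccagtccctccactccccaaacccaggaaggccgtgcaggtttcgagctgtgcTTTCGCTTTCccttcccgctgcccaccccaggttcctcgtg

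The match in Psmb6 lay from -9 to -1 and that in Psmb5 from -47 to -39 relative to the start. TGACNNNGC was found for 6 of 39 members (15.4%), namely Psmb5, Psmb6, Psmc6, Psmd9, Psmd12 and Psme4. Some members had several windows, so by window this was 6 of 42, against 12.4% of 32851 windows of all genes. GAAANNGAAA was found for 5 members (12.8%), namely Psmb3, Psmd4, Psmd9, Psme1 and Psmg4. By window this was 5 of 42, against 3.44% of all windows. The NF-kB consensus was found for 1 member, Psmd12, in 1 of 42 windows, against 4.51% of all windows. These matches are letters in a window and do not show binding. Psmb9 lies head to head with Tap1, the peptide transporter gene, with 225 bases between their starts.

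Among the genes of the regulatory particle, 14 of 17 base and lid subunits were called higher with IMQ alone and 1 lower. The base ATPases, which unfold the substrate, rose by 0.49 (Psmc1), 0.58 (Psmc2), 0.14 (Psmc3), 0.53 (Psmc4), 0.53 (Psmc5) and 0.59 (Psmc6). The scaffold subunits of the base rose by 0.38 (Psmd1) and 0.12 (Psmd2), and the ubiquitin receptor Psmd4 by 0.58. In the lid Psmd11 rose by 0.69, Psmd3 by 0.62, Psmd12 by 0.49, Psmd7 by 0.47 and Psmd14, the enzyme that removes ubiquitin from the substrate, by 0.39. The lid subunits Psmd6 (0.09) and Psmd13 (0.02) were not called. Psmd8, another lid subunit, fell. It read 11.27, 11.17, 11.28 and 11.12 in IMQ+PA, 11.02, 10.90, 11.08 and 10.92 in IMQ, 11.17, 11.13, 11.18 and 11.10 in PA, and 11.20, 11.21, 11.22 and 11.30 in mock arrays. Every array of IMQ alone lay below every mock array (log2 change -0.25 ± 0.05, limma adjusted p = 0.00112).

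Psmd10, also known as gankyrin, an assembly factor of the base, had the second largest rise. It read 9.10, 9.06, 9.05 and 9.11 in IMQ+PA, 9.23, 9.24, 9.21 and 9.29 in IMQ, 8.16, 8.05, 8.11 and 8.19 in PA, and 8.14, 7.99, 8.13 and 7.98 in mock arrays. With IMQ alone it rose 2.27-fold (log2 change 1.18 ± 0.05, limma adjusted p = 1.41e-11), and the arrays of IMQ+PA lay just below those of IMQ alone. Psmd5, another such factor, rose by 0.50 ± 0.05 and Psmd9 was not called (-0.01 ± 0.07). Of the factors that build the core, Psmg1 (0.37) and Psmg2 (0.21) rose and Psmg3 (-0.01) and Psmg4 (0.01) were not called. A second, much dimmer probe set of Psmg2 changed by -0.15 and was not called.

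The activators Psme1 and Psme2 form a cap that opens the core without ATP and that interferon induces. Psme1 read 10.63, 10.75, 10.62 and 10.76 in IMQ+PA, 11.02, 10.80, 10.91 and 10.89 in IMQ, 10.30, 10.26, 10.19 and 10.20 in PA, and 10.23, 10.23, 10.20 and 10.28 in mock arrays. IMQ alone raised Psme1 by 0.67 ± 0.05 (limma adjusted p = 3.79e-08), and the IMQ+PA arrays lay between the IMQ arrays and the rest. Psme2 read 7.37, 7.14, 7.11 and 6.96 in IMQ+PA, 6.85, 6.93, 7.08 and 7.18 in IMQ, 6.66, 6.74, 7.02 and 6.43 in PA, and 6.81, 6.67, 6.71 and 6.73 in mock arrays. Its change with IMQ alone was 0.28 ± 0.11 and not called (limma adjusted p = 0.0616, 95% confidence interval 0.05 to 0.52), while that in IMQ+PA against mock was called (0.42 ± 0.11, limma adjusted p = 0.00687). The SE of Psme2 was above that of most members, and its IMQ and IMQ+PA arrays overlapped. Its other probe set, which carried several symbols, was not read, so a difference from Psme1 may lie in the probe set used and was not tested. Psme3, which forms the nuclear activator, read 7.64, 7.55, 7.73 and 7.71 in IMQ+PA, 7.74, 7.93, 7.95 and 7.92 in IMQ, 7.58, 7.68, 7.63 and 7.64 in PA, and 7.57, 7.49, 7.81 and 7.66 in mock arrays. Its rise with IMQ alone was 0.25 ± 0.07 (limma adjusted p = 0.00918), and IMQ and mock arrays overlapped. Psme4, a large single-chain activator, read 8.78, 8.87, 8.87 and 8.83 in IMQ+PA, 8.61, 8.74, 8.74 and 8.69 in IMQ, 8.68, 8.77, 8.79 and 8.75 in PA, and 8.75, 8.62, 8.76 and 8.67 in mock arrays. Its change with IMQ alone was -0.01 ± 0.05 and not called. Psmf1, an inhibitor of the core, read 8.26, 8.21, 8.30 and 8.24 in IMQ+PA, 8.17, 8.32, 8.29 and 8.15 in IMQ, 8.12, 8.09, 8.08 and 8.08 in PA, and 8.07, 7.97, 8.09 and 7.98 in mock arrays. It rose with IMQ alone by 0.21 ± 0.05 (limma adjusted p = 0.00321), with the IMQ arrays all above the mock arrays.

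Of the 39 calls of IMQ alone against mock, 5 were lost on leaving out some single array, at limma adjusted p from 0.0504 to 0.135. These were Psma5 (without mock replicates 3 or 4 or IMQ replicates 3 or 4), Psmb3 (mock 3 or 4, or IMQ 1, 2 or 3), Psmc3 (mock 1, 2 or 3, or IMQ 1 or 2), Psmd2 (mock 1 or 2, or IMQ 4) and Psmg2 (mock 2, or IMQ 1, 2 or 3). A further fit left out the 5 arrays lacking IMQ that had high inflammatory transcripts (mock replicates 1 to 3 and PA replicates 3 and 4). It left 1 mock array, so its calls are not listed for this comparison, but some members called with all arrays were not called in it. The median member changed by 0.37, against 0.02 for all genes.

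**Figure D2:**
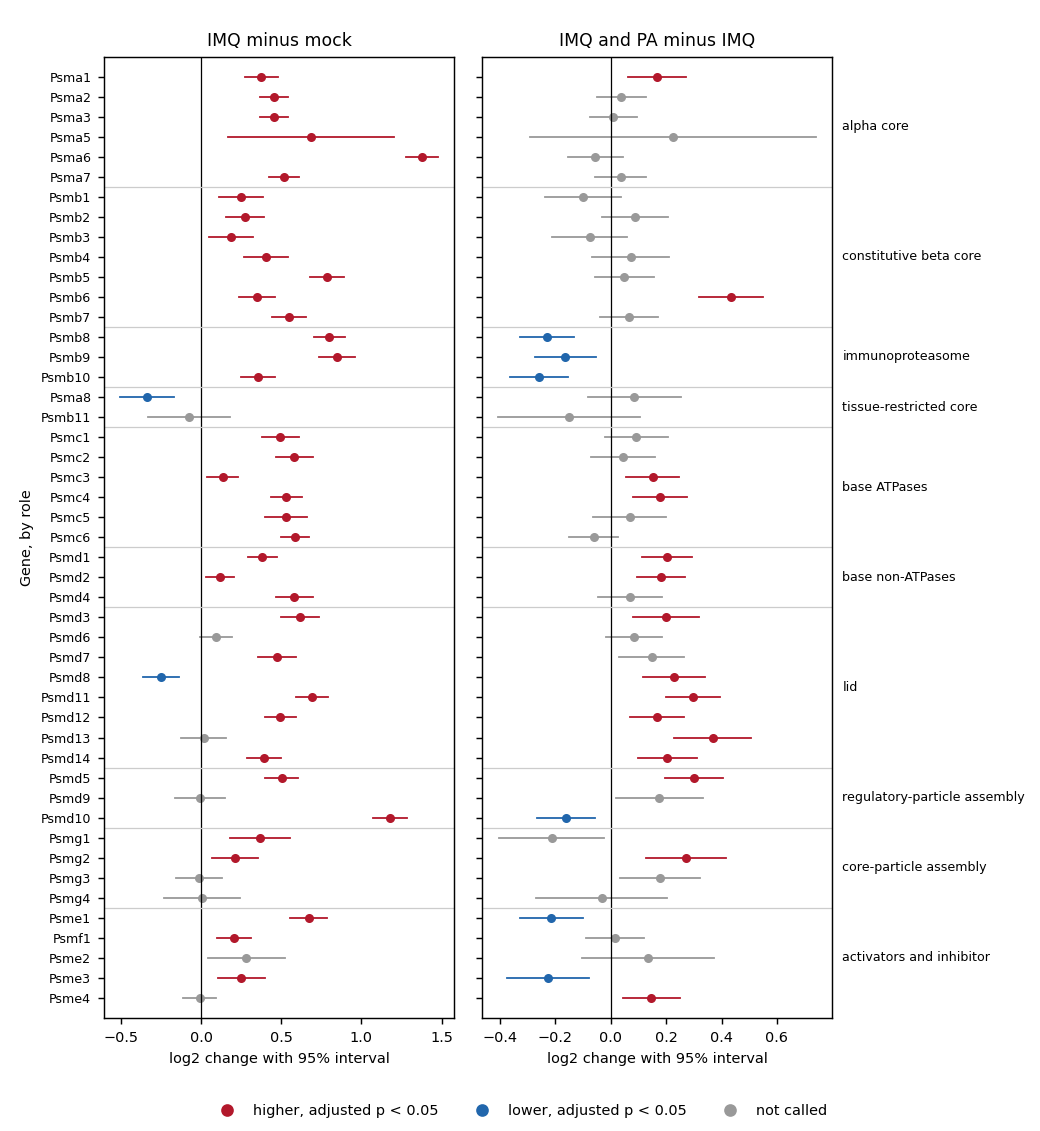
Log2 change of each of the 47 proteasome genes (rows, grouped by role) for IMQ minus mock on the left and IMQ+PA minus IMQ on the right, with the 95% confidence interval as a line and each panel on its own scale. Red points were called higher, blue points lower and grey points not called, by limma at an adjusted p under 0.05. With IMQ alone most roles lie right of 0, and with added PA the 3 inducible subunits lie left of 0, at a median of -0.23, while the lid lies right of 0, at a median of 0.20.

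Added to IMQ, PA moved the roles apart. Against IMQ alone, 15 members (31.9%) were called higher in IMQ+PA and 6 (12.8%) lower, where 11.6% of all genes were called higher and 9.44% lower. The arrays did not overlap for 17 higher and 7 lower members, against 12.5% and 11.0% of all genes. Both counts of lower members were thus near the shares of all genes. The median member changed by 0.08, against -0.02 for all genes. All 3 inducible subunits were called lower, Psmb10 by -0.26 ± 0.05 (limma adjusted p = 0.00105), Psmb8 by -0.23 ± 0.05 (0.0015) and Psmb9 by -0.16 ± 0.05 (0.0329). Psme1 (-0.21 ± 0.05, limma adjusted p = 0.00841) and Psme3 (-0.22 ± 0.07, 0.0301) were also lower, as was Psmd10 (-0.16 ± 0.05, 0.0273). For all 6 the 4 arrays of IMQ+PA lay below the 4 arrays of IMQ alone. The regulatory particle moved the other way, with 10 of 17 base and lid subunits called higher. Of the 13 constitutive core subunits 2 were called higher, Psmb6 and Psma1 (15.4%, near the 11.6% of all genes). With the median of every array set equal, 16 members were called higher and 3 lower, so that the share higher was 84.2% in place of 71.4%, and Psmb9, Psmd10 and Psme3 were not called.

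Psmb6 had the largest rise with added PA, 1.35-fold (log2 change 0.43 ± 0.05, limma adjusted p = 1.76e-05), and Psma1 rose by 0.17 ± 0.05 (0.023). In the lid, 6 of 8 subunits were called higher at a median of 0.20, and for all 8 the IMQ+PA arrays lay above the IMQ arrays. Psmd13, a lid subunit not called with IMQ alone, read 8.34, 8.36, 8.20 and 8.23 in IMQ+PA, 7.92, 7.91, 7.96 and 7.87 in IMQ, 8.01, 7.97, 8.12 and 8.16 in PA, and 7.78, 7.80, 8.0 and 8.01 in mock arrays. Its rise with added PA was 0.37 ± 0.07 (limma adjusted p = 0.00057). Psmd11, a lid subunit that helps to clamp the regulatory particle to the core, read 10.07, 10.10, 10.03 and 9.96 in IMQ+PA, 9.80, 9.74, 9.74 and 9.69 in IMQ, 9.16, 9.14, 9.05 and 9.09 in PA, and 9.07, 8.98, 9.08 and 9.08 in mock arrays. It rose with added PA by 0.30 ± 0.05 (limma adjusted p = 0.000185), on top of its rise with IMQ. Psmd8 (0.23), Psmd14 (0.20), Psmd3 (0.20) and Psmd12 (0.17) were the other lid subunits called higher. In the base Psmd1 (0.20), Psmd2 (0.18), Psmc4 (0.18) and Psmc3 (0.15) were called higher, and Psmc1, Psmc2, Psmc5, Psmc6 and Psmd4 were not called, at changes from -0.06 to 0.09.

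The assembly factors split in the same comparison. Psmd5 read 9.39, 9.41, 9.49 and 9.45 in IMQ+PA, 9.18, 9.14, 9.10 and 9.12 in IMQ, 8.82, 8.78, 8.84 and 8.92 in PA, and 8.58, 8.59, 8.75 and 8.60 in mock arrays, so the groups formed 4 steps without overlap. Its rise with added PA was 0.30 ± 0.05 (limma adjusted p = 0.000265), while Psmd10 fell. Psmg2 rose by 0.27 ± 0.07 (limma adjusted p = 0.00819), a change of 0.16 that was not called when its 2 probe sets were averaged (adjusted p = 0.0695). Psmg1 (-0.21 ± 0.09) and Psmg3 (0.18 ± 0.07) were not called. Psme4 rose by 0.15 ± 0.05 (limma adjusted p = 0.041).

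Of these 21 calls, 7 were lost on leaving out some single array, at limma adjusted p from 0.0512 to 0.126. Without IMQ replicate 4 the lower calls were 3 in place of 6, since Psmb9, Psme3 and Psmd10 lost theirs at changes of -0.16, -0.21 and -0.15. Psmb9 also lost its call without IMQ replicate 3 or IMQ+PA replicates 1, 3 or 4, Psme3 without IMQ replicates 2 or 3 or IMQ+PA replicates 1 or 2, and Psmd10 without IMQ replicate 2 or IMQ+PA replicates 2 or 3. The others were Psma1, Psmc3, Psmd3 and Psme4, each without at least 2 different arrays. When the IMQ+PA and IMQ arrays alone were fitted, 11 members were called higher and 3 lower.

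**Figure D3:**
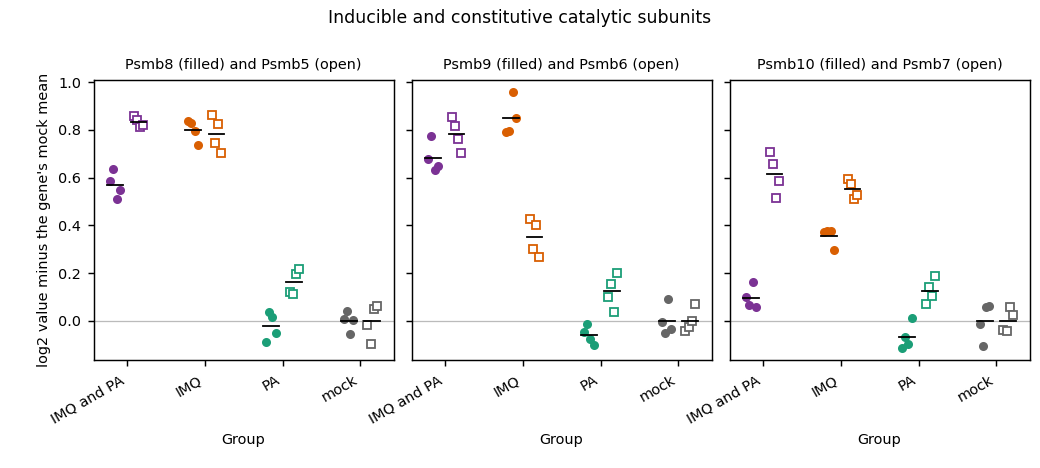
Log2 value minus the gene's own mock mean on each array (4 points per group, with a bar at the group mean) for the inducible subunit (filled) and its constitutive partner (open) of each catalytic pair, with groups in the order IMQ+PA, IMQ, PA, mock. In all 3 pairs every inducible point of IMQ+PA lies below every inducible point of IMQ, and Psmb6 is the constitutive subunit whose IMQ+PA points all lie above its IMQ points.

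The balance within each catalytic pair was followed as the change of the inducible subunit minus the change of its partner, given as a description without a test. It restates the values of the subunits above, and how often the arrays lay apart for other pairs of genes was not counted. With IMQ alone against mock it was 0.02 for Psmb8 and Psmb5, 0.50 for Psmb9 and Psmb6, and -0.20 for Psmb10 and Psmb7. For the first pair the arrays of both groups overlapped, and for the other pairs they did not. With PA added to IMQ the balance moved toward the constitutive subunit in all 3 pairs, by -0.28, -0.60 and -0.32 on the log2 scale, and the arrays did not overlap in any. For Psmb8 and Psmb10 most of this came from the fall of the inducible subunit, and for Psmb9 most came from the rise of Psmb6. PA alone moved the balance by -0.18, -0.18 and -0.19, with arrays apart for Psmb9 and Psmb6 and for Psmb10 and Psmb7. In IMQ+PA against mock the balance was -0.26, -0.10 and -0.52.

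IMQ+PA against mock called 36 members higher and 1 lower, where 18.4% of all genes were called higher and 18.1% lower. The median member changed by 0.49, against -0.01 for all genes. Arrays did not overlap for 39 higher and 1 lower member, against 17.8% and 17.4% of all genes. After Psma6 the largest changes were those of Psmd10 (1.02 ± 0.05), Psmd11 (0.99 ± 0.05), Psma5 (0.91 ± 0.24, from a mock mean below the 4.93 level), Psmb5 (0.83 ± 0.05), Psmd3 (0.82 ± 0.06) and Psmd5 (0.80 ± 0.05). The base and lid had 16 of 17 subunits called higher, Psmd8 being the exception (-0.02), and the constitutive core had 11 of 13, all but Psmb1 and Psmb3. Of the inducible subunits Psmb8 (0.57) and Psmb9 (0.68) were called and Psmb10 was not (0.10 ± 0.05, 95% confidence interval -0.01 to 0.20). Psma8 was lower (-0.25 ± 0.08), a call lost without mock replicate 4 (-0.22, adjusted p = 0.0592) or IMQ+PA replicate 4 (-0.19, 0.0699). Psme4 (0.14) lost its call without 5 different single arrays, among them mock replicate 2 (0.12, limma adjusted p = 0.0994). Without the 5 arrays with high inflammatory transcripts Psma5, Psma8, Psmc3, Psmd6, Psme2 and Psme4 lost theirs.

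Set against PA alone, IMQ+PA had 36 members called higher by limma and 0 lower, where 16.8% of all genes were called higher and 18.5% lower. At an unadjusted p under 0.05, 38 were higher and 1 lower, against 20.2% and 21.5% of all genes. Arrays did not overlap for 34 higher and 1 lower member, against 16.9% and 18.8% of all genes. The median member changed by 0.43, against 0.00 for all genes. Psma6 (1.22), Psmd10 (0.95) and Psmd11 (0.93) again had the largest changes, and all 3 inducible subunits were called higher, by 0.74 (Psmb9), 0.59 (Psmb8) and 0.16 (Psmb10). Psma5, Psmb3, Psmb10, Psmd13 and Psmf1 lost their calls without at least 1 single array, for example Psmb10 without IMQ+PA replicate 3 (0.14, adjusted p = 0.052). These comparisons share arrays with those against mock and against IMQ, so their values are not independent of them.

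With PA alone 1 proteasome gene passed the test. Against mock, limma called 1 member higher and 0 lower, where 1.05% of all genes were called higher and 0.442% lower. At an unadjusted p under 0.05, 15 were higher and 0 lower, against 8.55% and 5.92% of all genes. The called member was the assembly factor Psmd5 (log2 change 0.21 ± 0.05, adjusted p = 0.0492), whose 4 PA arrays lay above its 4 mock arrays. The call was lost when any single array other than mock replicate 3 was left out, at changes from 0.18 to 0.23 and adjusted p from 0.057 to 0.153. The median member changed by 0.07, against 0.01 for all genes. Arrays did not overlap for 11 higher members (Psmb5, Psmb7, Psmc4, Psmd1, Psmd2, Psmd4, Psmd5, Psmd12, Psmd14, Psmg2 and Psmg3) and 1 lower member (Psmd8), against 6.56% and 3.36% of all genes. The 3 inducible subunits changed by -0.02 ± 0.05 (Psmb8), -0.06 ± 0.05 (Psmb9) and -0.07 ± 0.05 (Psmb10), and the activator Psme1 by 0.01 ± 0.05, none of them called. Of the regulatory particle 16 of 17 base and lid subunits had a change above 0, at a median of 0.13, from -0.09 for Psmd8 to 0.17 for Psmd4.

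**Figure D4:**
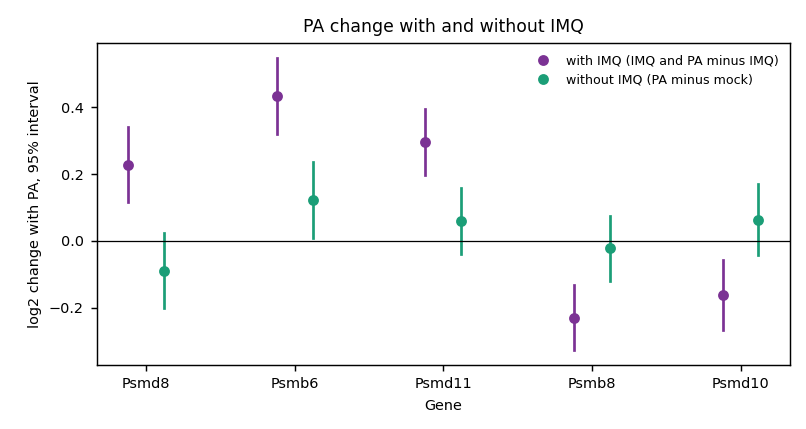
Log2 change with PA in the presence of IMQ (IMQ+PA minus IMQ, purple) and without it (PA minus mock, green), with 95% confidence intervals as lines, for the 5 proteasome genes with a called interaction, none of which was called without the 5 arrays with high inflammatory transcripts. Psmd8, Psmb6 and Psmd11 lie higher with IMQ than without it, and Psmb8 and Psmd10 lie lower.

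The change with PA in the presence of IMQ minus that without it, the interaction term, was called for 5 members. These were 3 above 0 and 2 below (6.38% and 4.26% of members), where 6.58% of all genes were called above 0 and 7.01% below. Members were thus not called more often than all genes. The median member had an interaction of 0.00, against -0.01 for all genes. Psmd8 changed by 0.23 with PA in IMQ and by -0.09 without IMQ (interaction 0.32 ± 0.07, limma adjusted p = 0.00866). Psmb6 changed by 0.43 with PA in IMQ and by 0.12 without it (0.31 ± 0.08, adjusted p = 0.0114), and Psmd11 by 0.30 and 0.06 (0.24 ± 0.07, 0.0243). Psmd10 changed by -0.16 in IMQ and by 0.06 without it (-0.23 ± 0.07, adjusted p = 0.0425), and Psmb8 by -0.23 and -0.02 (-0.21 ± 0.06, 0.0441). Both negative calls rested on the whole set of arrays, since Psmb8 was not called without any of 12 single arrays and Psmd10 without any of 11, at adjusted p from 0.0553 to 0.0916. With the median of every array set equal, Psmb8, Psmd10 and Psmd11 were not called, at adjusted p from 0.0619 to 0.109, and without the 5 arrays with high inflammatory transcripts none of the 5 was called, at interactions of 0.38 (Psmd8), 0.38 (Psmb6), 0.23 (Psmd11), -0.29 (Psmd10) and -0.20 (Psmb8) and adjusted p from 0.0955 to 0.362. Psmd11 lost its call without PA replicate 3, IMQ replicate 4 or IMQ+PA replicate 2, at adjusted p from 0.0506 to 0.0542. Psmb9 (-0.10 ± 0.07) and Psmb10 (-0.19 ± 0.07, adjusted p = 0.0877), the other inducible subunits, had no called interaction, with 95% confidence intervals from -0.26 to 0.05 and from -0.34 to -0.04.

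Genes that act with the proteasome were read from lists chosen by function. Their counts stand beside shares of all genes of 17.0% higher and 17.9% lower with IMQ alone, 11.6% and 9.44% with PA added to IMQ, and 1.05% and 0.442% with PA alone. The interaction was called above 0 for 6.58% of all genes and below 0 for 7.01%. Of 10 measured regulators of proteasome genes, 6 were called higher and 2 lower with IMQ alone. The transcription factor gene Nfe2l1, which encodes NRF1 and drives constitutive subunit genes, rose by 1.15 (limma adjusted p = 1.7e-11), and Nlrc5 (0.93) and Irf1 (0.65), which act on the inducible subunits and class I genes, also rose. The repressor Bach1 fell by 1.16 and Nfe2l2, which encodes NRF2, by 0.35. With PA added to IMQ, 2 of the 10 were higher and 3 lower. Nfe2l3 (-0.46), Nfe2l1 (-0.36) and Irf1 (-0.25) fell, Mafk (0.24) and Nfe2l2 (0.20) rose, and Nlrc5 was not called (-0.12). The interaction was called for Nfe2l1 (-0.50), Irf1 (-0.29) and Nfe2l2 (0.24). With PA alone limma called 0 of the 10 in either direction. At an unadjusted p under 0.05, 1 was higher and 1 lower, near the 8.55% and 5.92% of all genes.

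Of 8 measured genes for other proteasome parts, 2 were higher and 3 lower with IMQ alone, the count of higher genes being near the share of all genes. The associated thioredoxin Txnl1 rose by 0.80 and the scaffold Ecpas by 0.27, while the deubiquitinase Usp14 fell by 0.23, Uchl5 by 0.18 and the lid component Sem1 by 0.13. Pomp, the maturation factor of the core and of the immunoproteasome, was not called with IMQ alone (-0.02) and rose by 0.18 with PA added to IMQ, as did Sem1 (0.23) and Txnl1 (0.18). Of 11 measured genes for ubiquitin supply and delivery to the proteasome, 6 were higher and 1 lower with IMQ alone, led by the receptor Sqstm1 (0.92), Nploc4 (0.60) and Ubqln1 (0.46), with Zfand2a lower (-0.52). With PA added to IMQ 6 of the 11 were higher, among them Zfand2a (0.56), the segregase Vcp (0.45) and Uba6 (0.33). With PA alone 3 were higher, namely Vcp (0.24), Sqstm1 (0.23) and Nploc4 (0.21).

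Of 10 measured genes that handle class I peptides downstream of the proteasome, 6 were higher and 3 lower with IMQ alone. Tap1 rose by 1.59, Ube2l6, an enzyme of the ISG15 pathway, by 1.54 and Tap2 by 0.95, while the leucine aminopeptidase Lap3 fell by 0.66. With PA added to IMQ, 4 were lower and 3 higher. The peptide trimmer Erap1 (-0.51), Tap1 (-0.23), H2-K1 (-0.18) and Tapbp (-0.12) fell, and Lap3 (0.62), the chaperone Calr (0.58) and the disulfide isomerase Pdia3 (0.50) rose. With PA alone limma called 0 of the 10. At an unadjusted p under 0.05, 0 were higher and 2 lower, against 8.55% and 5.92% of all genes.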

How the data were processed

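The 16 arrays were 1-colour Affymetrix whole-transcript mouse gene arrays, each hybridised with labelled DNA from 200 ng of total RNA, per the labels' protocols. The values that the authors deposited were log2 intensities of probe sets, for which the processing notes of the submitters list RMA and affy, with no version. RMA includes background correction and quantile normalization, so a shift shared by all genes would be removed. A genome build was not given in the sources used here. Precision is limited by the number of arrays, there being no reads to count. The table held 41345 probe sets, of which 23521 had 1 symbol in the platform annotation, 1814 several and 16010 none listed, giving 22180 genes. All 47 symbols matched RefSeq (GRCm38.p6), used for names and promoter windows. RefSeq also lists near-identical copies of some members, and probes shared with them were not tested.

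The log2 values were fitted with limma 3.58.1 in R 4.3.3 (lmFit, contrasts.fit and eBayes, group means, all 16 arrays, 12 residual degrees of freedom), two-sided, with no filter on dim genes. The replicate numbers were not used to pair the samples. Deviations of same-numbered arrays correlated at -0.12 to 0.17, and 4 of 24 pairs exceeded 0.1. Those of arrays with other numbers correlated at -0.18 to 0.10. The highest same-numbered pairs, such as mock and IMQ replicate 3 (0.17), thus lay above every other pair, and what the numbers share is not stated. On simulated data for PA against mock (22180 genes), 65.7%, 98.5% and 100% of known changes of 0.5, 1 and 2 were recovered, and 3.83% of calls were false. The largest change of a member with PA alone, 0.22, lay below all of these sizes, so the recovery of such small changes was not measured. The members, the lists and the 5 arrays left out in one alternative were chosen with earlier results of these data known. Values per array are given for the catalytic pairs, the activators, the inhibitor and the 3 highest and 3 lowest called changes of each comparison, and of each list up to 3 called genes that moved the main way and 1 that moved the other way, with others named where calls were few. Alternatives were repeated quantile normalization, equal array medians, a variance trend with robust moderation, no dim genes, the mean of all probe sets per gene, only the 2 groups compared, the replicate number as a block, each array left out, and 5 arrays with high inflammatory transcripts left out. Some genes of the lists are not reported here.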

Additional observations from a re-analysis of the deposited data

Results flagged for a closer look

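Single arrays stood apart from the other 3 of their group in 5 of 72 groups of named members, where chance marks about 1 in 20. Psmb10 read 10.01 in IMQ replicate 4, against 10.08 to 10.09 in the other IMQ arrays. Psme3 read 7.74 in IMQ replicate 1, against 7.92 to 7.95. Psmd5 read 8.75 in mock replicate 3, against 8.58 to 8.60, and Psmd11 read 8.98 in mock replicate 2, against 9.07 to 9.08. Psma6 read 8.15 in PA replicate 1, against 8.23 to 8.24.

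For 5 members the limma interaction term called a difference in the change with PA between cells with and without IMQ. Calls above 0 made up 6.38% of members and 6.58% of all genes, and calls below 0 made up 4.26% and 7.01%. Members were thus not called more often than all genes. The differences were 0.32 for Psmd8, 0.31 for Psmb6, 0.24 for Psmd11, -0.23 for Psmd10 and -0.21 for Psmb8.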

How the results depend on the processing

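No called change of a member reversed its direction under the alternatives run. PA alone called 1 member higher, Psmd5. Without the 5 arrays with high inflammatory transcripts, which left 1 mock array, its change was 0.20. The count for PA alone became 0 with repeated quantile normalization, equal array medians, the mean of probe sets, only the 2 groups fitted and the replicate number as a block. It became 5 with a variance trend and robust moderation, where 2.47% of all genes were called higher. Without dim genes it became 2, where 3.01% of all genes were called higher. Shares of all genes under the other alternatives are not given here. Leaving out single arrays gave 0 to 1 higher calls for PA alone and 0 to 1 lower calls for IMQ+PA against mock. It gave 3 to 6 lower calls for IMQ+PA against IMQ and 0 to 2 negative interactions. Lower calls for IMQ+PA against IMQ were 3 with equal array medians and 3 with only the 2 groups fitted. Negative interactions, 2 in the main analysis, were 1 with repeated quantile normalization and with the replicate number as a block, 0 with equal medians, and 4 with the variance trend and without dim genes. The positive interactions were 3, and 2 with equal medians. Without the 5 arrays, which left 1 mock array assumed to vary like the others and 2 PA arrays, the interaction was called for 0 members in each direction and 0 members were lower in IMQ+PA than in mock, and the cause was not tested. With the replicate number as a block, Psmd5 (PA against mock, limma adjusted p = 0.0749), Psma5 (IMQ against mock, 0.0575, and IMQ+PA against PA, 0.056) and Psmd10 (interaction, 0.0521) lost their calls. The interaction needs all 4 groups, so only 2 groups could not be fitted.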
